A study of Mus musculus with 6 samples.

Results

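The genes described here are 33 genes of the inhibitory interneurons of the forebrain, taken from a given list of gene symbols and matched by GENCODE M21 symbol, out of 35523 genes with matched transcripts. All 33 were expressed highly enough to be tested, as were 17096 genes in all. RNA was sequenced from the whole forebrain of 6 C57BL/6 mice at postnatal day 20, with 3 Slc13a4+/- mice (Het_1024, Het_1025 and Het_1027) and 3 wild-type littermates (WT_1016, WT_1018 and WT_1026). The Slc13a4+/- mice carried 1 copy of the Nas2Del allele of *Slc13a4*, a sodium-coupled sulfate transporter, in every cell of the body, and came from heterozygous males mated with wild-type females. Neither the litter nor the sex of a mouse is stated in the labels or methods. The comparison asked whether interneuron transcripts differed between the genotypes at this age. Each p-value below weighs the difference between the genotypes against the spread between mice of the same genotype, among these 6 mice.

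Cortical and hippocampal interneurons release GABA and inhibit their neighbours. Most are born outside the cortex, in the medial and caudal ganglionic eminences of the embryonic ventral forebrain, and migrate in. Cells of medial origin become mainly parvalbumin and somatostatin interneurons, while cells of caudal origin include the VIP, calretinin, CCK and part of the neurogliaform interneurons. Many of the genes that mark these classes are also used elsewhere in the forebrain, for example by GABAergic projection neurons of the striatum (*Gad1*, *Gad2*, *Slc32a1*) or by excitatory neurons (*Cck*, *Satb1*, *Cnr1*), and a whole-forebrain sample sums over all of them.

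No interneuron gene passed the threshold used here, an adjusted p below 0.1. In edgeR 0 of 33 did, against 0.00585% of all tested genes, and in DESeq2 with average transcript length offsets 0 of 33 did, against 0.487%. At an unadjusted p below 0.05, edgeR gave 2 of the 33, *Adarb2* (higher in Slc13a4+/- mice) and *Calb2* (lower), against 9.15% of all tested genes. DESeq2 gave those and *Nos1* (lower), 3 of the 33, against 7.0% of the same 17096 genes and 4.3% of the 28627 genes that DESeq2 gave a p-value, many of them below the filter on low counts. The CPM (counts per 1000000 counts) of the genotypes did not overlap for 4 of the 33, against 15.0% of all tested genes. These were *Adarb2* and *Chodl*, 2 of 33 higher in every Slc13a4+/- mouse (7.26% of all tested genes), and *Calb2* and *Htr3a*, 2 of 33 lower (7.7%). As shares of 33, these counts were near or below those of the 17096 genes.

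The differences were small and, for most of the genes, closely bounded. In edgeR the log2 fold change of Slc13a4+/- over wild-type lay between -0.18 and 0.18 for all 33 genes. Of these, 13 were above 0 and 20 below, around a median of -0.02, beside a median of 0.00 over all tested genes. DESeq2 with offsets gave -0.19 for *Calb2* and 0.21 for *Chodl*. The mean CPM of Slc13a4+/- mice was 95 to 105% of the wild-type mean for 25 genes and 90 to 110% for 29, and spanned 87.9% to 113%. The 95% interval of the edgeR log2 fold change stayed inside a 1.2-fold change in either direction (0.26 on the log2 scale) for 26 of 33 genes, against 59.5% of all tested genes. The intervals of *Nkx2-1*, *Chodl*, *Cort*, *Npas1*, *Calb2*, *Htr3a* and *Sncg* were wider than that or reached past it, and that of *Nkx2-1* ran from -0.86 to 1.12. In bulk tissue, fewer cells of a class and less RNA per cell cannot be told apart, so these values bound the summed transcripts and not the number of interneurons.

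**Figure D1:**
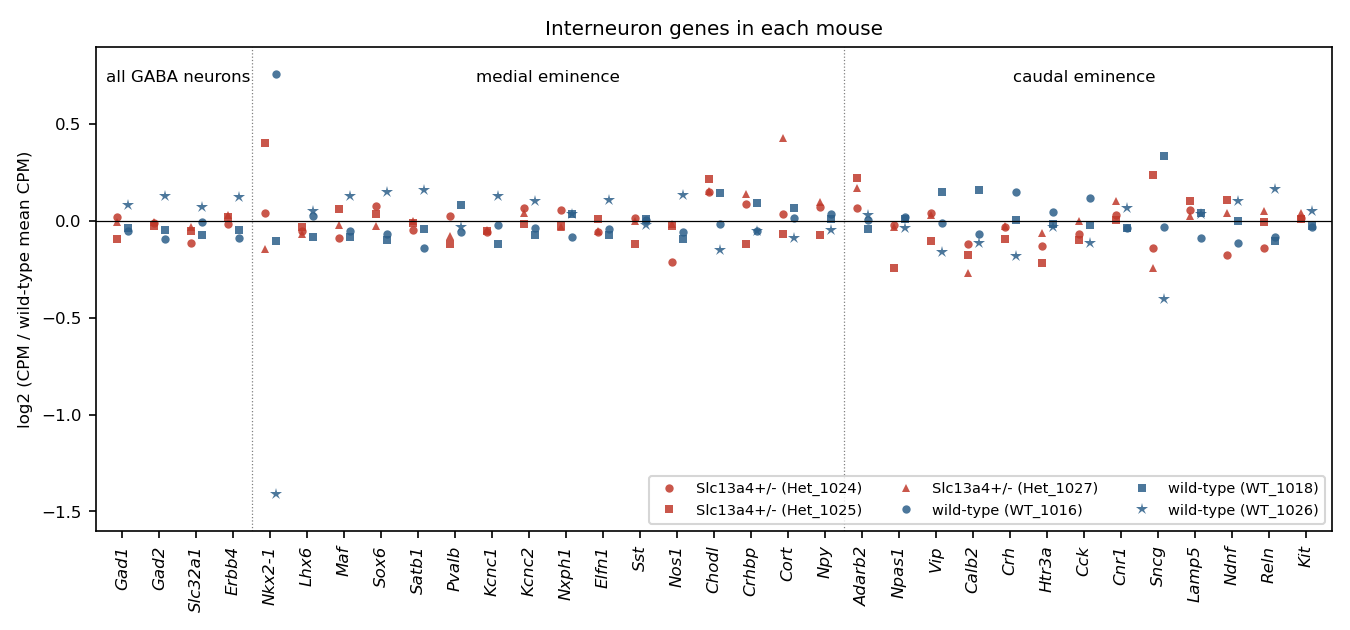
CPM of each interneuron gene in each mouse, as the log2 ratio to the wild-type mean (vertical axis), with genes along the horizontal axis in the order general GABA genes, medial eminence genes and caudal eminence genes; red symbols are Slc13a4+/- mice and blue symbols wild-type mice. Most genes lie in a narrow band around 0, and *Nkx2-1* is spread widely among the wild-type mice.

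**Figure D2:**
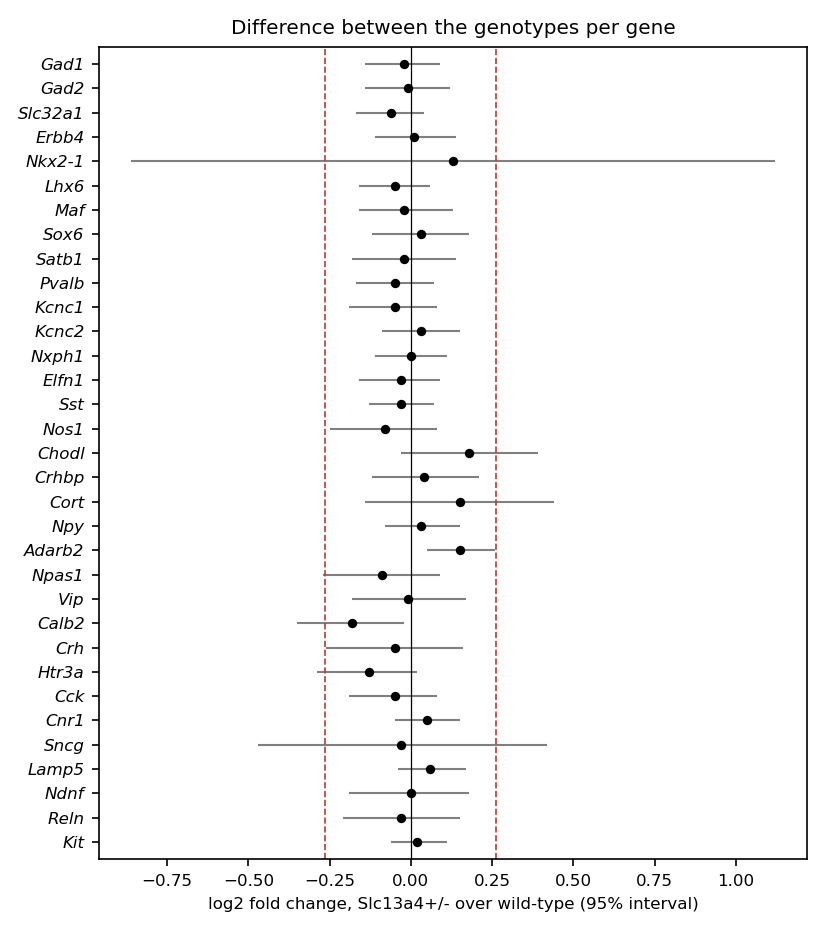
edgeR log2 fold change of Slc13a4+/- over wild-type for each interneuron gene (points) with its 95% interval (bars), n = 3 mice per genotype; the dashed lines mark a 1.2-fold change in either direction. Of the 33 intervals, 26 stay between the dashed lines.

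Libraries held 69260309 to 78070813 estimated counts in Slc13a4+/- mice and 60340337 to 80410582 in wild-type mice, and each interneuron gene had 36 to 29835 counts in each mouse. *Slc13a4* itself had 5.60, 6.57 and 5.41 CPM in Slc13a4+/- mice, against 10.4, 9.36 and 8.23 CPM in wild-type mice (log2 fold change -0.67, SE 0.11, adjusted p = 0.499 in edgeR and 0.0024 in DESeq2). Every Slc13a4+/- mouse was below every wild-type mouse. The Y-linked *Ddx3y* stood at 105 CPM in mouse WT_1016 and at 0.0331 CPM or less in the other 5 mice. By this gene WT_1016 was male and the others female. The wild-type group thus held both sexes, while all Slc13a4+/- mice were female. The part of sex in the differences between the genotypes was not tested. Wild-type mouse WT_1026 stood apart from the other mice, as described with the interneuron genes below.

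Expressed per transcript length, as TPM (transcripts per 1000000 transcripts), the interneuron genes spanned a wide range of levels. *Cck* (cholecystokinin) was the highest, at 718 ± 31.3 TPM in Slc13a4+/- mice and 733 ± 57.1 TPM in wild-type mice (SD, n = 3 each). *Sst* (somatostatin) followed at 488 ± 24.7 TPM in Slc13a4+/- mice and 490.9 ± 2.73 TPM in wild-type mice. *Npy* (neuropeptide Y) stood at 277 ± 18.1 TPM in Slc13a4+/- mice and 267 ± 6.40 TPM in wild-type mice. These peptide precursors have short messenger RNAs, and their rank was lower by CPM, which does not divide by length. At the other end stood *Nkx2-1*, the transcription factor that specifies the medial eminence and is silenced in most cortical interneurons as they leave it, with 1.31 ± 0.241 TPM in Slc13a4+/- mice and 1.18 ± 0.802 TPM in wild-type mice. Of the 32 pairs of neighbours in this order, 22 overlapped over the 6 mice. Those apart were *Cck* from *Sst*, *Sst* from *Npy*, *Gad1* from *Calb2*, *Pvalb* from *Slc32a1*, *Nxph1* from *Cort*, *Crhbp* from *Kit*, *Adarb2* from *Elfn1*, *Maf* from *Htr3a*, *Npas1* from *Chodl* and *Chodl* from *Nkx2-1*.

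The genes listed as general GABA genes, with *Erbb4* among them, did not differ beyond the spread between mice. *Gad1*, on chromosome 2 from 70553072 to 70602014 (GRCm38), encodes the GAD67 form of the enzyme that makes GABA and had 366, 339 and 360 CPM in Slc13a4+/- mice, against 348, 352 and 382 CPM in wild-type mice. *Gad2*, which encodes the GAD65 form held at nerve terminals, had 239, 236 and 240 CPM in Slc13a4+/- mice, against 225, 233 and 263 CPM in wild-type mice. *Slc32a1*, the vesicular GABA transporter, had 71.1, 74.0 and 75.2 CPM in Slc13a4+/- mice, against 76.5, 73.0 and 80.8 CPM in wild-type mice. In each of these genes the genotypes overlapped and mouse WT_1026 was the highest of all 6. *Erbb4*, the neuregulin receptor that interneurons carry, had 167, 171 and 172 CPM in Slc13a4+/- mice, against 159, 163 and 184 CPM in wild-type mice, with mouse WT_1026 again the highest. The log2 fold changes were -0.02 for *Gad1* (SE 0.05), -0.01 for *Gad2* (SE 0.06), -0.06 for *Slc32a1* (SE 0.05) and 0.01 for *Erbb4* (SE 0.06). Adjusted p-values in edgeR were 0.909, 0.964, 0.696 and 0.960 in that order. All 4 intervals lay inside a 1.2-fold change, and they reached lowest in *Slc32a1* (-0.17 to 0.04) and highest in *Erbb4* (-0.11 to 0.14).

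Among genes of medial eminence interneurons, 8 of 16 had a log2 fold change above 0 and 8 below (median -0.01). *Lhx6*, the transcription factor that these cells keep into adulthood, had 16.8, 17.0 and 16.6 CPM in Slc13a4+/- mice, against 17.7, 16.4 and 18.0 CPM in wild-type mice. The difference came to -0.05 on the log2 scale (95% interval -0.16 to 0.06, adjusted p = 0.778 in edgeR). *Pvalb*, the calcium-binding protein parvalbumin of fast-spiking interneurons, had 33.8, 30.5 and 31.5 CPM in Slc13a4+/- mice, against 31.9, 35.1 and 32.4 CPM in wild-type mice. The genotypes overlapped for both, and the log2 fold change of *Pvalb* was -0.05 (95% interval -0.17 to 0.07, adjusted p = 0.777). *Sst*, on chromosome 16 from 23889573 to 23890958, had 137, 125 and 136 CPM in Slc13a4+/- mice, against 136, 137 and 134 CPM in wild-type mice. *Npy*, a peptide of part of the somatostatin cells and of neurogliaform cells, had 56.3, 50.8 and 57.2 CPM in Slc13a4+/- mice, against 54.8, 53.9 and 51.8 CPM in wild-type mice. mouse Het_1025 was the lowest of the 6 for *Pvalb*, *Sst* and *Npy*. The log2 fold change was -0.03 for *Sst* (95% interval -0.13 to 0.07, adjusted p = 0.844) and 0.03 for *Npy* (-0.08 to 0.15, adjusted p = 0.859).

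The promoter of *Sst* is a textbook target of the cAMP response element binding protein CREB, so the element was looked for in the promoters of the interneuron genes. RefSeq promoter windows (GRCm38.p6, 250 bases upstream of each RefSeq start) were matched for 28 of the 33 genes (47 windows, since a gene can have several starts); *Ndnf*, *Crh*, *Calb2*, *Maf* and *Htr3a* were not matched. The full palindrome TGACGTCA was found, on either strand, in 508 of 32851 windows (1.55%) and, among the interneuron genes, in that of *Sst* only. Its shorter form TGACGTC, which the palindrome contains, was found in 914 windows (2.78%) and, among the interneuron genes, in those of *Sst* and *Vip*. Both stretches are shown with 10 bases on either side, 5′ to 3′ on the strand of the gene and with the element in capitals, because these peptide genes can then be set beside their levels.
Sst, chr16:23890875-23890902, minus strand: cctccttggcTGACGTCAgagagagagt
Vip, chr10:5639129-5639155, plus strand: atcactactgTGACGTCtttcggggag
The element began 48 bases upstream of the RefSeq start of *Sst* and 79 bases upstream of that of *Vip*. The GENCODE model of *Sst* starts further upstream than the RefSeq one and includes this stretch. A match describes these letters only. Beside *Sst*, *Vip* also had a log2 fold change near 0 (-0.01, 95% interval -0.18 to 0.17).

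The other medial eminence genes followed the same pattern. The transcription factors *Maf*, *Sox6* and *Satb1*, which act in the migration and maturation of these cells, had log2 fold changes of -0.02, 0.03 and -0.02. *Satb1* averaged 104 ± 1.69 CPM in Slc13a4+/- mice and 105 ± 11.4 CPM in wild-type mice (SD, n = 3 each). *Kcnc1* and *Kcnc2*, the Kv3 potassium channel subunits that let fast-spiking cells fire at high rates, had log2 fold changes of -0.05 and 0.03. The synaptic proteins *Nxph1* (neurexophilin 1, a neurexin ligand) and *Elfn1* (a postsynaptic protein that shapes the input onto somatostatin cells) stood at 0.00 and -0.03. *Crhbp*, the binding protein of corticotropin-releasing hormone, averaged 19.4 ± 1.79 CPM in Slc13a4+/- mice and 18.8 ± 1.09 CPM in wild-type mice, a log2 fold change of 0.04. *Cort*, the somatostatin-related peptide cortistatin, averaged 6.52 ± 1.22 CPM in Slc13a4+/- mice and 5.88 ± 0.313 CPM in wild-type mice. Its log2 fold change of 0.15 (SE 0.13, adjusted p = 0.729 in edgeR) came with 7.92 CPM in mouse Het_1027, the highest of the 6, and without that mouse it was -0.01.

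*Sox6* changed direction with the treatment of transcript length. It averaged 39.7 ± 1.40 CPM in Slc13a4+/- mice and 38.9 ± 3.74 CPM in wild-type mice, with a log2 fold change of 0.03 (SE 0.07). With average transcript length offsets the log2 fold change was -0.09 in DESeq2 and -0.08 in edgeR, and neither passed the threshold. *Nos1*, the neuronal nitric oxide synthase of a sparse somatostatin class and of other forebrain neurons, had 39.0, 44.3 and 44.7 CPM in Slc13a4+/- mice, against 43.5, 42.4 and 49.6 CPM in wild-type mice. The genotypes overlapped. On the log2 scale the fold change was -0.08 in edgeR (SE 0.07, adjusted p = 0.749) and -0.16 in DESeq2 with offsets (unadjusted p = 0.0146, adjusted p = 0.526). With a mouse left out, the edgeR value lay between -0.13 (without WT_1018) and -0.01 (without WT_1026), and it was -0.02 without Het_1024.

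*Chodl*, which encodes the membrane lectin chondrolectin and marks the long-range somatostatin and *Nos1* neurons, is on chromosome 16 from 78930948 to 78951733. It had 4.89, 5.14 and 4.92 CPM in Slc13a4+/- mice, against 4.37, 4.88 and 3.98 CPM in wild-type mice. The lowest Slc13a4+/- mouse and the highest wild-type mouse were almost level. edgeR gave a log2 fold change of 0.18 (SE 0.09, 95% interval -0.03 to 0.39, unadjusted p = 0.0862, adjusted p = 0.594 in edgeR). Without transcripts annotated as retaining an intron it was 0.03, without mouse WT_1026 it was 0.11, and without mouse WT_1018 it was 0.26 (unadjusted p = 0.0267).

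*Nkx2-1* varied more than any other interneuron gene among the wild-type mice. It had 1.26, 1.62 and 1.11 CPM in Slc13a4+/- mice, against 2.07, 1.14 and 0.46 CPM in wild-type mice. The lowest value was that of mouse WT_1026. *Slc6a3*, the dopamine transporter of midbrain neurons, was chosen for comparison after its values were seen and had 13.6, 21.3 and 16.0 CPM in Slc13a4+/- mice, against 21.8, 22.8 and 4.19 CPM in wild-type mice, where mouse WT_1026 was again the lowest. Of the other tested midbrain and hindbrain genes, *En1* was lowest in that mouse too (0.128 CPM), while *Tph2* (1.63 CPM) and *En2* (0.795 CPM) were not. The 11 hypothalamic genes summed to 55.5 CPM in mouse WT_1026, against 62.8 to 74.3 CPM in the other mice. *Pmch*, *Hcrt*, *Agrp* and *Sim1* were lowest in that mouse, and the other hypothalamic genes were not. How much hypothalamic tissue, or tissue from outside the forebrain, each sample held was not tested. The log2 fold change of *Nkx2-1* was 0.13 (SE 0.43, 95% interval -0.86 to 1.12). Without mouse WT_1016 it was 0.76 and without mouse WT_1026 it was -0.28, so its direction rested on single mice.

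Among genes of caudal eminence interneurons, 4 of 13 had a log2 fold change above 0 and 9 below (median -0.03). *Adarb2*, which encodes the editing-inactive RNA-binding relative of the adenosine deaminases and marks caudal interneurons as a class, is on chromosome 13 from 8202866 to 8768747. It had 42.2, 47.0 and 45.2 CPM in Slc13a4+/- mice, against 40.4, 39.2 and 41.1 CPM in wild-type mice. Every Slc13a4+/- mouse was above every wild-type mouse, and mouse Het_1024 was the nearest to them. The log2 fold change was 0.15 (SE 0.05, 95% interval 0.05 to 0.26), with an unadjusted p of 0.00948 and an adjusted p of 0.499 in edgeR, and DESeq2 with offsets gave 0.16 and an adjusted p of 0.532. Its fold change stayed between 0.12 and 0.21 under the 22 other settings.

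*Calb2* (calretinin, a calcium-binding protein), on chromosome 8 from 110137502 to 110168210, went the other way. It had 64.7, 62.3 and 58.3 CPM in Slc13a4+/- mice, against 67.2, 78.6 and 64.9 CPM in wild-type mice. The highest Slc13a4+/- mouse lay just under the lowest wild-type mouse, and mouse WT_1018 was far above the rest. edgeR gave a log2 fold change of -0.18 (SE 0.07, 95% interval -0.35 to -0.02, unadjusted p = 0.0347, adjusted p = 0.528 in edgeR). Without mouse WT_1018 it was -0.10. Without mouse WT_1026 it was -0.24 in DESeq2 with offsets, with an adjusted p of 0.0505. That was the only call for any interneuron gene under any setting. Calls over all genes were also most numerous in that setting, as given below. There 3 interneuron genes had an unadjusted p below 0.05, against 7.68% of the 28397 genes with a p-value. Calretinin is also made by thalamic, hypothalamic and olfactory bulb neurons. The 5 thalamic markers summed to 298 to 325 CPM in Slc13a4+/- mice and 320 to 339.5 CPM in wild-type mice, with 0 of 5 past an unadjusted p of 0.05. Mouse WT_1018 had the highest sum, through *Slc17a6* (161 CPM, against 124 to 139 CPM in the other mice). *Prkcd* was lowest in that mouse (82.1 CPM), and *Tcf7l2*, *Gbx2* and *Ntng1* were not highest there. The 6 olfactory bulb markers summed to 8.63 to 12.6 CPM in Slc13a4+/- mice and 8.94 to 18.6 CPM in wild-type mice. All 5 tested had a log2 fold change below 0 (median -0.44, from -0.64 to -0.14), and 1 of them passed that p (*Doc2g*). *S100a5*, which was too low to test, stood at 0, 0 and 1 counts in Slc13a4+/- mice and 1, 6 and 23 counts in wild-type mice. The part of these tissues in the *Calb2* values was not tested.

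*Htr3a*, a subunit of the ionotropic serotonin receptor and a general marker of caudal interneurons, is on chromosome 9 from 48899213 to 48911099. It had 6.33, 5.96 and 6.63 CPM in Slc13a4+/- mice, against 7.15, 6.85 and 6.78 CPM in wild-type mice. Every Slc13a4+/- mouse was below every wild-type mouse, by a small margin between mice Het_1027 and WT_1026. In edgeR the log2 fold change was -0.13 (SE 0.07, 95% interval -0.29 to 0.02, unadjusted p = 0.0868, adjusted p = 0.595 in edgeR). *Adarb2* and *Htr3a*, both broad markers of caudal origin, lay on opposite sides of 0.

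**Figure D3:**
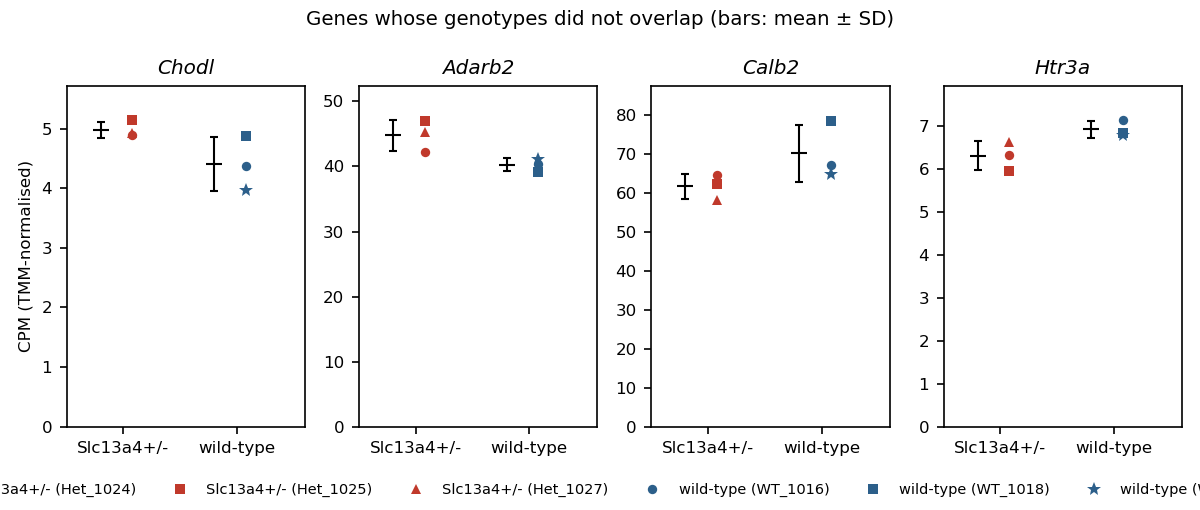
CPM (vertical axes, from 0) of the 4 interneuron genes whose genotypes did not overlap, by mouse, with mean ± SD beside the points, n = 3 mice per genotype. The gap between the genotypes is narrow in each gene, at 4.89 against 4.88 CPM in *Chodl*, 42.2 against 41.1 CPM in *Adarb2*, 64.7 against 64.9 CPM in *Calb2* and 6.63 against 6.78 CPM in *Htr3a* for the nearest mice.

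The genes of the single caudal classes did not differ beyond the spread between mice. *Vip*, the vasoactive intestinal peptide of disinhibitory interneurons, had 39.5, 35.7 and 39.2 CPM in Slc13a4+/- mice, against 38.1, 42.6 and 34.3 CPM in wild-type mice. *Lamp5*, a lysosomal membrane family protein that marks neurogliaform cells, had 83.0, 85.7 and 81.3 CPM in Slc13a4+/- mice, against 75.2, 82.3 and 81.8 CPM in wild-type mice. The genotypes overlapped for both, and the wild-type mice held both the highest and the lowest *Vip* value. For *Lamp5* the log2 fold change was 0.06 (95% interval -0.04 to 0.17, adjusted p = 0.696 in edgeR). *Ndnf*, a secreted protein of layer 1 neurogliaform cells, averaged 23.2 ± 2.33 CPM in Slc13a4+/- mice and 23.2 ± 1.73 CPM in wild-type mice. *Reln*, the extracellular matrix protein reelin, averaged 200.2 ± 13.2 CPM in Slc13a4+/- mice and 204 ± 21.7 CPM in wild-type mice. *Kit*, the receptor of stem cell factor, averaged 49.9 ± 0.613 CPM in Slc13a4+/- mice and 49.0 ± 1.59 CPM in wild-type mice. Their log2 fold changes were 0.00, -0.03 and 0.02.

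Of the cholecystokinin class, *Cck* averaged 183 ± 6.36 CPM in Slc13a4+/- mice and 190.1 ± 15.8 CPM in wild-type mice, a log2 fold change of -0.05. *Cnr1*, the cannabinoid receptor on the terminals of these cells, averaged 288 ± 10.3 CPM in Slc13a4+/- mice and 278 ± 11.7 CPM in wild-type mice, a log2 fold change of 0.05. *Sncg* (gamma-synuclein), in contrast, was low and variable, at 3.35, 4.34 and 3.12 CPM in Slc13a4+/- mice and 3.60, 4.65 and 2.78 CPM in wild-type mice. Its interval was -0.47 to 0.42, so a difference below that size was not detectable here. *Crh*, the peptide corticotropin-releasing hormone, averaged 5.82 ± 0.155 CPM in Slc13a4+/- mice and 6.02 ± 0.683 CPM in wild-type mice. *Npas1*, a transcription factor of caudal interneurons, averaged 6.34 ± 0.532 CPM in Slc13a4+/- mice and 6.77 ± 0.148 CPM in wild-type mice. The log2 fold changes were -0.05 for *Crh* (SE 0.09) and -0.09 for *Npas1* (SE 0.08).

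Ratios between class markers, chosen after the values of the genes were seen, are given as a description. *Pvalb* over *Sst* CPM was 0.246, 0.245 and 0.232 in Slc13a4+/- mice and 0.235, 0.257 and 0.243 in wild-type mice. *Vip* over *Sst* CPM was 0.288 ± 0.00124 in Slc13a4+/- mice and 0.283 ± 0.0275 in wild-type mice (SD, n = 3 each). *Gad1* over *Gad2* and *Kcnc2* over *Kcnc1* also overlapped between the genotypes. *Lhx6* over *Adarb2* CPM, which sets medial against caudal origin, was 0.397, 0.361 and 0.366 in Slc13a4+/- mice, against 0.437, 0.418 and 0.437 in wild-type mice. The last ratio did not overlap, in the direction that the *Adarb2* values had already given.

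Wild-type mouse WT_1026 set much of the spread among wild-type mice. It was the highest of the 6 mice for 14 of the 33 genes and the lowest for 7, where over all tested genes it was the highest for 21.8% and the lowest for 18.3%. The 14 included *Gad1*, *Gad2*, *Slc32a1*, *Erbb4*, *Sox6*, *Satb1* and *Reln*, and the 7 included *Vip*, *Cck*, *Crh*, *Cort* and *Sncg*. The direction followed transcript length, a relation that was looked at after these values had been seen and with a single division at 2500 bases. All 18 genes with an average effective length of 2500 bases or more were higher in mouse WT_1026 than in the mean of the other wild-type mice, with a median log2 ratio of 0.16. Of the 15 shorter genes, 1 was higher (*Lamp5*), with a median of -0.13. Over the 33 genes the correlation of this ratio with length was 0.83 by Spearman and 0.41 by Pearson, across genes that share the same 3 libraries and are not independent. Over all tested genes with a length the correlations were 0.35 and 0.15, with 5396 of 8175 longer genes and 2914 of 8892 shorter genes higher in mouse WT_1026. The part of RNA quality in this was not tested.

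**Figure D4:**
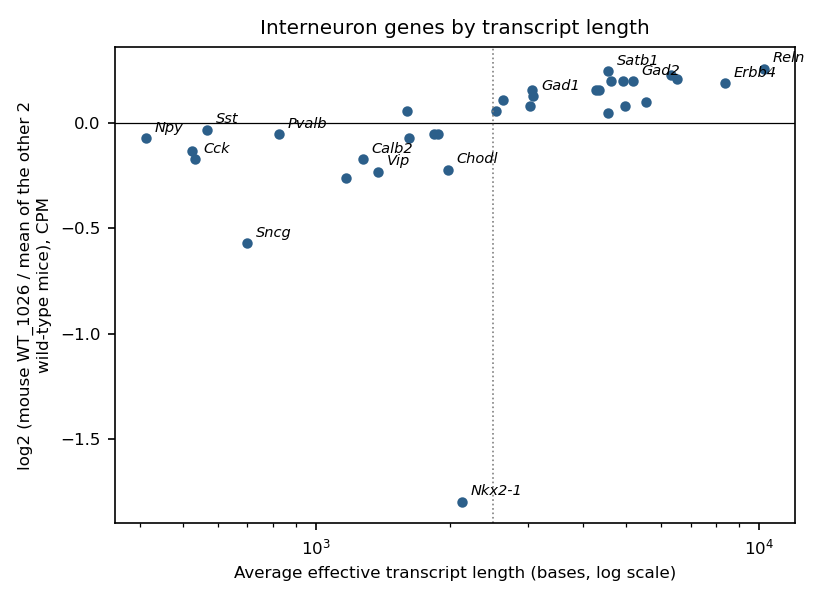
Log2 ratio of mouse WT_1026 to the mean of the other 2 wild-type mice (vertical axis, CPM) for each interneuron gene, against average effective transcript length in bases (horizontal axis, log scale); the dotted line marks 2500 bases. Points right of the line all lie above 0, and 1 of the 15 to its left does.

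With mouse WT_1026 left out, 6 interneuron genes had an unadjusted p below 0.05 in edgeR, against 18.0% of all genes then tested. *Erbb4*, *Sox6*, *Kcnc2*, *Adarb2* and *Cnr1* were on the higher side and *Calb2* on the lower side, and 0 of 33 passed the adjusted threshold. Among mice of 1 genotype, the coefficient of variation of the 33 genes had a median of 4.03% in Slc13a4+/- mice and 6.75% in wild-type mice, beside 4.24% and 5.85% in the same order over all tested genes.

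Most of the difference in *Chodl* lay in a transcript annotated as retaining an intron. This transcript took 42.5%, 46.8% and 44.7% of *Chodl* counts in Slc13a4+/- mice, against 36.9%, 42.4% and 35.1% in wild-type mice. Its CPM was 2.23 ± 0.162 in Slc13a4+/- mice and 1.69 ± 0.346 in wild-type mice (SD, n = 3 each), while that of the protein-coding *Chodl* transcripts was 2.76 ± 0.0506 in Slc13a4+/- mice and 2.72 ± 0.123 in wild-type mice. The coding values overlapped between the genotypes. In *Adarb2* the retained-intron share was 6.69%, 10.6% and 7.46% in Slc13a4+/- mice and 5.90%, 6.84% and 5.05% in wild-type mice, and the log2 fold change without that transcript was 0.13. The coding transcripts of *Adarb2* had 19.2, 19.1 and 19.2 CPM in Slc13a4+/- mice, against 17.9, 17.2 and 19.7 CPM in wild-type mice, and overlapped through mouse WT_1026. The rest of the *Adarb2* counts fell on transcripts of other annotated types, mostly on *Adarb2-203*, annotated as subject to nonsense-mediated decay. That transcript took 46.2%, 46.3% and 48.1% of counts in Slc13a4+/- mice, against 48.6%, 48.0% and 45.7% in wild-type mice, and overlapped. These are shares of a gene total that averaged 44.82 CPM in Slc13a4+/- mice and 40.25 CPM in wild-type mice. Coding transcripts averaged 19.1 and 18.2 CPM in the same order, so most of the *Adarb2* difference lay outside them.

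In *Ndnf* the retained-intron share was 5.48%, 5.78% and 5.96% in Slc13a4+/- mice, against 4.89%, 4.71% and 4.46% in wild-type mice. That transcript is 527 bases long and the coding one 10101 bases, so a change in their shares moves the average length of the gene. The log2 fold change of *Ndnf* was 0.00 without length offsets and 0.16 with them, in DESeq2 (adjusted p = 0.827) and in edgeR alike. In *Npas1* the retained-intron share was 4.92%, 4.93% and 2.16% in Slc13a4+/- mice and 3.28%, 3.77% and 1.34% in wild-type mice. Its coding transcripts had 6.34, 5.45 and 6.49 CPM in Slc13a4+/- mice, against 6.66, 6.58 and 6.52 CPM in wild-type mice, with every Slc13a4+/- mouse lower.

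Of the 33 genes, 13 have a retained-intron transcript in the files, and the mean share was higher in Slc13a4+/- mice for 12 of them, against 79.7% of the 8411 tested genes with counts on such a transcript. The shares did not overlap between the genotypes for 5 of the 13, all higher in Slc13a4+/- mice (*Chodl*, *Ndnf*, *Vip*, *Gad1* and *Erbb4*), against 20.1% of the 8411 genes higher and 1.08% lower. Of these 5, only *Chodl* and *Ndnf* had a mean share of 1% or more. Over all matched transcripts the share was 2.03%, 2.45% and 2.15% in Slc13a4+/- mice, against 1.86%, 2.02% and 1.81% in wild-type mice, so a higher share in Slc13a4+/- mice was not limited to the interneuron genes. Counts were divided between overlapping transcripts by estimation, and the part of unspliced RNA or of genomic DNA in these shares was not tested.

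**Figure D5:**
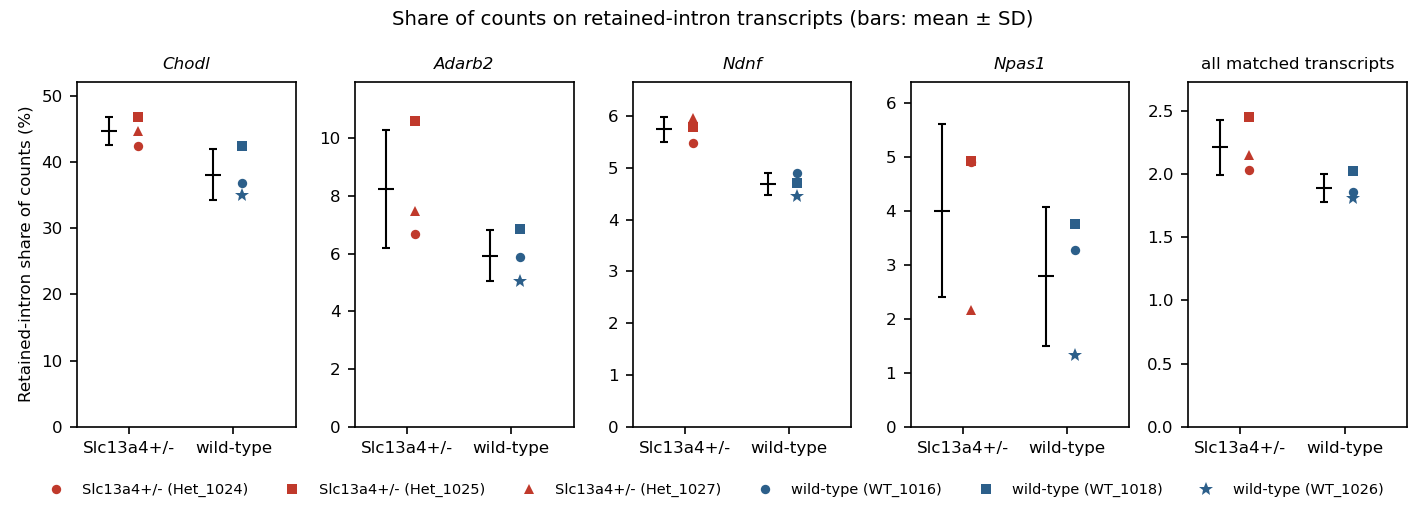
Percent of a gene's estimated counts on transcripts annotated as retaining an intron (vertical axes, from 0) for *Chodl*, *Adarb2*, *Ndnf*, *Npas1* and all matched transcripts together, by mouse, with mean ± SD beside the points, n = 3 mice per genotype. The genotypes are apart in *Chodl*, *Ndnf* and all matched transcripts, and overlap in *Adarb2* and *Npas1*.

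A wider set of GABA and interneuron genes was listed with earlier results of these data known. Of 50 such genes 49 were tested, of which 18 had a log2 fold change above 0 and 31 below (median -0.02). At an unadjusted p below 0.05 edgeR gave 0 higher and 4 lower, against 4.98% higher and 4.17% lower over all tested genes, and neither tool called any. The genotypes did not overlap for 0 higher and 4 lower (7.26% and 7.7% of all tested genes), and 30 of the 49 intervals stayed inside a 1.2-fold change. In 5 genes of GABA reuptake and breakdown the log2 fold changes lay between -0.08 and 0.05, and in 14 tested transcription factors of the eminences between -0.25 and 0.06, with 0 past that p in both. Of 16 further interneuron genes 1 passed it. This was *Cbln4*, a secreted synaptic organiser of the cerebellin family that somatostatin cells make, with 16.1, 15.1 and 15.2 CPM in Slc13a4+/- mice, against 18.5, 19.7 and 17.6 CPM in wild-type mice. Every Slc13a4+/- mouse was lower, with a log2 fold change of -0.26 (SE 0.05, unadjusted p = 0.00117, adjusted p = 0.499 in edgeR and 0.156 in DESeq2).

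Of 14 receptors for the peptides that interneurons release, 3 had an unadjusted p below 0.05, all lower. *Cckbr*, the main brain receptor of cholecystokinin, had 33.4, 36.0 and 35.9 CPM in Slc13a4+/- mice, against 38.8, 38.1 and 38.3 CPM in wild-type mice, and did not overlap. The somatostatin receptors *Sstr2* and *Sstr4* averaged 22.4 ± 1.90 and 15.4 ± 0.778 CPM in Slc13a4+/- mice and 25.7 ± 1.76 and 17.4 ± 1.67 CPM in wild-type mice. The log2 fold changes were -0.13 for *Cckbr*, -0.20 for *Sstr2* and -0.17 for *Sstr4*, and the adjusted p-values in edgeR were 0.499, 0.506 and 0.542. Their ligands *Cck* and *Sst* had log2 fold changes of -0.05 and -0.03, as given above.

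Markers of other forebrain cells, and of the state of the tissue, were set beside the interneuron genes. The median log2 fold change was 0.00 for 11 genes of striatal projection neurons, 0.01 for 9 genes of cortical excitatory neurons and -0.04 for 4 cholinergic genes. It was -0.16 for 11 hypothalamic genes, which summed to 62.8 to 64.8 CPM in Slc13a4+/- mice and 55.5 to 74.3 CPM in wild-type mice. The 3 markers of Cajal-Retzius cells, which also make reelin, had a median of -0.20 and summed to 2.55 to 2.66 CPM in Slc13a4+/- mice and 2.78 to 2.96 CPM in wild-type mice. *Reln*, at a log2 fold change of -0.03, was far more abundant than these markers. Several glial, vascular and choroid plexus lists lay mostly below 0. Of 6 microglial genes 0 lay above 0 and 3 were lower at an unadjusted p below 0.05, and they summed to 273 to 281 CPM in Slc13a4+/- mice, against 294.5 to 298 CPM in wild-type mice. Of 6 choroid plexus genes 0 lay above 0 and 2 were lower at that p, and they summed to 386 to 450.2 CPM in Slc13a4+/- mice, against 468 to 475 CPM in wild-type mice. *Ttr*, the choroid plexus carrier transthyretin, made up most of these sums, with 353 to 412 CPM in Slc13a4+/- mice and 430 to 437 CPM in wild-type mice. It was called in DESeq2 (adjusted p = 0.0921) and not in edgeR (adjusted p = 0.499). Of the other choroid plexus genes, *Kcnj13* did not overlap between the genotypes, while *Folr1*, *Kl*, *Clic6* and *Otx2* did. The median was -0.14 for 6 oligodendrocyte genes (0 above 0, 2 lower at that p), -0.08 for 5 genes of their precursors, -0.05 for 6 astrocyte genes and -0.12 for 5 endothelial genes (2 lower at that p). Of 7 heat-shock genes 0 lay above 0 and 6 were lower at an unadjusted p below 0.05, with a median of -0.23. The same number, 6, did not overlap between the genotypes. DESeq2 called 2 of the 7, *Hspb1* (adjusted p = 0.0441) and *Dnajb1* (adjusted p = 0.0575), and edgeR called 0. The 8 activity-regulated genes, which neurons switch on when they fire, had a median of 0.13 and summed to 504 to 719 CPM in Slc13a4+/- mice and 491 to 761 CPM in wild-type mice. The part of these cells and states in the interneuron values was not tested.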

How the data were processed

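Whole forebrains of 3 Slc13a4+/- and 3 wild-type mice (C57BL/6, postnatal day 20) were sequenced as bulk RNA. The authors quantified transcripts with Salmon (version 1.2.0 in the submitters' processing notes), and the sources used here do not name the transcript set or build of its index. Per transcript, the deposited tables hold the estimated (expected) count, the TPM value and the effective length.

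Of 117135 transcripts, 115973 were matched to GENCODE M21 (GRCm38) by ID, and the other 1162 held 0.620% to 0.645% of counts and were left out. The deposited expected counts were summed per gene (35523 genes) and rounded, and the deposited TPM values were summed per gene for levels. Library totals were 60340337 to 80410582 counts.

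Genotypes were compared in Python 3.11.15 and R 4.3.3 with edgeR 4.0.16 (quasi-likelihood test, TMM normalisation, filterByExpr, 17096 genes, Benjamini-Hochberg adjustment over all of them), with an adjusted p below 0.1 as threshold. Standard errors were taken as the log2 fold change over the square root of F, and 95% intervals from the t quantile at the fit's degrees of freedom. CPM values are scaled by TMM. Alternatives were DESeq2 1.42.0 with and without average transcript length offsets, edgeR with offsets, limma 3.58.1 (voom), other normalisations and filters, leaving out retained-intron transcripts, and leaving out each mouse. Settings that combine DESeq2 with the last 2 were added after the data were seen. With 3 mice against 3, an exact permutation test of 1 value cannot go below p = 0.1. The code was tested on simulated data.

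The interneuron genes and the comparison lists were chosen with earlier results of these data known. All 33 genes are named; the values of every mouse are given for the general GABA genes, *Pvalb*, *Sst*, *Vip*, *Npy*, *Lhx6*, *Adarb2*, *Lamp5* and each gene with an unadjusted p below 0.05 or without overlap of the genotypes, and at most 3 genes with the smallest p for each other list. Every mouse's values of *Nos1*, *Nkx2-1*, *Sncg* and *Slc6a3* were added after they were seen, as were the division by transcript length, the ratios between genes and the split by transcript type with its minimum share of 1%. The promoters were searched for 6 motifs, of which 2 are described. The motif TGACG was in 19.1% of the 47 windows of the interneuron genes (17.8% of all windows), the TATA box motif TATAAA in 6.38% (12.4%), the homeodomain motif TAATTA in 4.26% (4.84%) and the E-box motif CACGTG in 6.38% (6.02%).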

Additional observations from a re-analysis of the deposited data

How the results depend on the processing

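Over all genes, the number called was 1 in edgeR, 86 in DESeq2 with length offsets, 55 in DESeq2 without them, 0 in edgeR with them, 65 in DESeq2 with offsets and without retained-intron transcripts, and 1 to 720 with a mouse left out (223 in edgeR and 720 in DESeq2 without mouse WT_1026). Interneuron genes called numbered 0, and 0 to 1 with a mouse left out. At an unadjusted p below 0.05 they numbered 2, 3 in the settings with length offsets (with *Nos1*), and 1 to 6 with a mouse left out (6 without mouse WT_1026 in edgeR, and 1 without mouse Het_1025 in edgeR or mouse Het_1027 in either tool), and the related genes 4, 3 to 5 in the other settings with all mice, and 1 to 7 with a mouse left out (1 without Het_1024, 2 without Het_1025 or WT_1016 and 7 without WT_1018, in edgeR). The share of all genes at that p moved as well, from 2.73% to 18.0% over the settings. It was 9.15% in the main edgeR fit, 18.0% in edgeR without mouse WT_1026, 5.83% without Het_1025 and 5.67% without Het_1027. Leaving out Het_1024, WT_1016 or WT_1018 in edgeR gave 7.42%, 5.91% and 7.55% in that order. In DESeq2 with offsets it was 4.3% with all mice and 2.77% without Het_1027. The cause of these shifts was not tested. Of 22 settings, all kept the sign for 11 genes: *Slc32a1*, *Lhx6*, *Pvalb*, *Nos1*, *Chodl*, *Adarb2*, *Npas1*, *Calb2*, *Htr3a*, *Cnr1* and *Lamp5*.

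The other 22 genes changed sign in at least 1 setting. With offsets in DESeq2 the log2 fold change was -0.09 for *Sox6*, -0.01 for *Nxph1*, 0.16 for *Ndnf* and 4e-05 for *Reln*, and with offsets in edgeR -0.08, -0.01, 0.16 and 0.0017 in the same order. DESeq2 without offsets gave -3.9e-05 for *Nxph1*. Limma voom gave 0.0024 for *Vip* and 0.01 for *Sncg*, and upper quartile scaling 0.001 for *Vip* and 0.0045 for *Ndnf*. Filters of 10 counts in total and of 1 CPM in 3 mice gave -0.0008 for *Nxph1* and 0.0016 for *Ndnf*. Without retained-intron transcripts *Vip* was 8.2e-05 in edgeR, and *Gad2* was 0.003 and *Sox6* -0.10 in DESeq2 with offsets. With a mouse left out, the lowest and highest values were -0.08 and 0.02 for *Gad1*, -0.06 and 0.06 for *Gad2*, -0.03 and 0.08 for *Erbb4*, -0.30 and 0.76 for *Nkx2-1*, -0.07 and 0.06 for *Maf*, -0.13 and 0.11 for *Sox6*, -0.09 and 0.07 for *Satb1*, -0.11 and 0.02 for *Kcnc1*, -0.03 and 0.09 for *Kcnc2*, -0.05 and 0.02 for *Nxph1*, -0.07 and 0.03 for *Elfn1*, -0.06 and 0.01 for *Sst*, -0.02 and 0.12 for *Crhbp*, -0.02 and 0.25 for *Cort*, -0.01 and 0.09 for *Npy*, -0.09 and 0.08 for *Vip*, -0.14 and 0.04 for *Crh*, -0.11 and 0.02 for *Cck*, -0.20 and 0.17 for *Sncg*, -0.06 and 0.26 for *Ndnf*, -0.08 and 0.08 for *Reln*, and -0.01 and 0.05 for *Kit*. For *Calb2* they were -0.24 and -0.10, for *Nos1* -0.19 and -0.01, for *Chodl* 0.11 and 0.30, and for *Htr3a* -0.18 and -0.09.

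No analysis paired by litter was possible because the litter of each mouse is not stated. Leaving out a mouse leaves 2 in its genotype. The counting error is largest for *Nkx2-1*, which had the smallest count of any interneuron gene in a mouse (36).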

Other observations

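The transcripts of the interneuron genes were also compared by their share of their gene's counts, as a description and with no test. Of 67 transcripts with a mean share of 1% or more, in 23 genes with several such transcripts, the share was higher in every Slc13a4+/- mouse than in every wild-type mouse for 7 and lower for 5, against 7.74% higher and 5.59% lower of 44273 such transcripts of all tested genes. The 12 are not separate observations, since the shares of 1 gene sum to a whole and several are partners in the same gene. Beside the retained-intron transcripts of *Chodl* and *Ndnf* and their coding partners, these include the coding pair of *Nxph1*, a neurexin ligand. Transcript *Nxph1-202* (2815 bases) took 55.9%, 55.2% and 57.6% of its counts in Slc13a4+/- mice, against 55.1%, 50.7% and 54.4% in wild-type mice. The nearest mice were almost level, and the gene as a whole had a log2 fold change of 0.00.

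The shorter coding transcript of *Crhbp*, *Crhbp-201* (1701 bases), took 5.80%, 6.56% and 6.97% of counts in Slc13a4+/- mice, against 5.60%, 3.04% and 5.39% in wild-type mice. *Satb1-203* (2896 bases), a coding transcript of a chromatin organiser, took 4.21%, 4.88% and 5.80% in Slc13a4+/- mice, against 6.15%, 11.4% and 5.91% in wild-type mice, where mouse WT_1018 stood apart. *Adarb2-204* (1659 bases), annotated as a processed transcript without a coding frame, took 1.70%, 2.55% and 2.14% in Slc13a4+/- mice, against 1.25%, 1.29% and 1.45% in wild-type mice. *Kcnc2-203* (4370 bases) and *Cnr1-202* (5761 bases) were on the higher side in Slc13a4+/- mice by margins of under 1 percentage point between the nearest mice.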
